A study of Mus musculus with 12 samples.

Results

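Transcripts of the Reg family and the exocrine pancreas were followed in hepatocytes sorted from mouse livers with and without carbon tetrachloride injury. The members were 4 Reg genes (Reg3a, Reg3b, Reg3g and Reg1) and 6 pancreatic genes (Try4, Cpa1, Pnlip, Cela2a, Cel and Clps), taken by symbol as 10 of the 37141 gene rows of the count table. They were chosen by their counts in these same libraries over all 4 groups, so their levels and fold changes are given below as descriptions. The number of them past the threshold of the model across all genes is printed only beside the share of all genes past it, and nothing is drawn from it. Most of their counts came from 4 of the 12 libraries. Yap/Taz KO + CCl4 replicate 2, Yap/Taz KO replicate 1, Yap/Taz KO + CCl4 replicate 1 and ctrl replicate 1 held 96.95% of the 19785 counts of the 6 pancreatic genes, and these 4 libraries belong to 3 different groups. The 3 Reg3 members were distributed differently: 2449 of their 2504 counts (97.8%) were in replicates 1 and 2 of Yap/Taz KO + CCl4.

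All mice carried floxed alleles of both genes (Yapflox/flox; Tazflox/flox). The ctrl group had its alleles intact and no treatment, and no control vector or vehicle injection is named for it. The ctrl + CCl4 group received CCl4, a hepatotoxin that kills the hepatocytes around central veins, at 1 ml/kg in corn oil into the peritoneum, and was collected at 48 hours. The Yap/Taz KO group received AAV8-Cre under the hepatocyte-specific TBG promoter 3 weeks before collection, and the Yap/Taz KO + CCl4 group received the same vector 3 weeks before CCl4 and was collected 48 hours after it. Vector and genotype therefore cannot be told apart, cells in which the TBG promoter is inactive keep their alleles, and ages are not given in the labels. Each group had 3 libraries of 500000 flow-sorted cells, made with QuantSeq 3' mRNA-Seq FWD, in which each polyadenylated transcript is read as a short tag at its 3' end. The labels do not say that the 3 samples of a group were separate animals, so spreads and p-values describe these samples and may be technical.

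Pancreatic acinar cells make digestive enzymes in very large amounts and secrete them, mostly as inactive precursors, into the duodenum. Reg proteins are small secreted C-type lectins. Reg3b and Reg3g bind bacterial surfaces in the gut, and Reg3 genes are strongly induced in pancreas, gut and liver by inflammation through cytokines of the IL-6 and IL-22 families and the transcription factor STAT3. Reg1 is a major secretory product of acinar cells. The 6 pancreatic genes encode a trypsinogen (Try4), carboxypeptidase A1 (Cpa1), pancreatic triglyceride lipase (Pnlip) and its cofactor colipase (Clps), an elastase (Cela2a) and carboxyl ester lipase (Cel). They are called enzyme transcripts below, and summed counts of these 6 genes are called enzyme counts.

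The 4 Reg members lie in 1 cluster. On GRCm38 (GENCODE M21) the cluster of Reg3b, Reg3d, Reg3a, Reg2, Reg1 and Reg3g spans 98.2 kb at chr6:78370657-78468872. Reg3b is at chr6:78370657-78373466 on the plus strand, Reg3a at chr6:78380709-78383827 on the plus strand, Reg1 at chr6:78422711-78428667 on the plus strand and Reg3g at chr6:78466269-78468872 on the minus strand. The enzyme genes are spread over 5 chromosomes: Try4 at chr6:41302269-41305532 and Cpa1 at chr6:30639218-30645363, both on the plus strand, Pnlip at chr19:58652498-58681788 on the plus strand, and, on the minus strand, Cela2a at chr4:141814962-141826160, Cel at chr2:28555795-28563403 and Clps at chr17:28558149-28560766. All are protein-coding.

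The promoters of 4 members are printed for the motifs they hold. Each run holds the 250 bases before the RefSeq start (GRCm38.p6), written 5' to 3' on the gene's own strand, and capitals mark matches to any of 3 motifs: TTCNNNGAA, the palindrome bound by STAT proteins, CACCTG, an E-box of the acinar factor PTF1, and TTCCCA, the box of its RBPJ subunit. Matches on the opposite strand appear as CAGGTG and TGGGAA. Reg3b is shown because it holds the STAT match, Reg3a because it is the other Reg3 gene with the highest fitted change, and Cpa1 and Cel as enzyme genes with 1 and several matches. Reg3b is at chr6:78370635-78370884 on the plus strand, Reg3a at chr6:78380459-78380708 on the plus strand, Cpa1 at chr6:30638968-30639217 on the plus strand and Cel at chr2:28563404-28563653 on the minus strand. The RefSeq start of Reg3b lies inside the GENCODE span given above, so its window overlaps the first bases of that span.
Reg3b: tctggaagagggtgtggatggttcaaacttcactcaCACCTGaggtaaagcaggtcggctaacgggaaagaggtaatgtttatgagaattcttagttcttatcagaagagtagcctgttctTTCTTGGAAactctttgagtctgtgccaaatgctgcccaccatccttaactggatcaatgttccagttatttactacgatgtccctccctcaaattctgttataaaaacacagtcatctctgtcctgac
Reg3a: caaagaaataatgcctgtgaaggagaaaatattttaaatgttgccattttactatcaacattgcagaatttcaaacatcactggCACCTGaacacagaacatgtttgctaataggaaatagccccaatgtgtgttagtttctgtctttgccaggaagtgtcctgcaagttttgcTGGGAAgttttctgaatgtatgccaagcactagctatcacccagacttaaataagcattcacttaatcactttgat
Cpa1: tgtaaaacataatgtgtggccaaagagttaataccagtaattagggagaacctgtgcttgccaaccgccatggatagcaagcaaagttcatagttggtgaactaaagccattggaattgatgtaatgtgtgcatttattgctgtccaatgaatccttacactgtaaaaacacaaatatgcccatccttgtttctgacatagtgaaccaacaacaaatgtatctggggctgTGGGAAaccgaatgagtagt
Cel: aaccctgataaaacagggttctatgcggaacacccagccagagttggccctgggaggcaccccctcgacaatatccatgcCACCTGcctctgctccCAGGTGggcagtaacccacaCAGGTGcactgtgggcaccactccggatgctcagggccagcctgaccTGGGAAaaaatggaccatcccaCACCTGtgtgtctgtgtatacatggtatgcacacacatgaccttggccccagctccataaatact

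The promoter set used here held 9 of the 10 members and had no entry for Clps. Promoters on chromosome 18, where no member lies, were left out of the search. TTCNNNGAA was in 1 of the 9, Reg3b, where the match TTCTTGGAA begins 129 bases before the start, against 7.0% of 32851 mouse promoters searched in the same window. Among the other Reg genes, Reg3d also held it, 238 bases before the start. CACCTG was in 5 of 9 members (Reg3a, Reg3b, Try4, Cela2a and Cel) against 17.2% of promoters, and TTCCCA was in 7 of 9 (Reg3a, Reg3g, Reg1, Cpa1, Pnlip, Cela2a and Cel) against 21.6%. Both strands were searched, and the 3 motifs may overlap. A match is a description of these letters, and no binding was measured here.

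Library totals ranged from 1617761 to 3028951 counts. Summed hepatocyte markers were abundant in every library, between 80620 and 139100 CPM (counts scaled to 1000000 per library), and all 10 markers were present in each group. Yap1, the targeted Yap gene, had 38.3 to 85.7 CPM in the 6 libraries with intact alleles and 7.47 to 17.9 CPM in the 6 knockout libraries. Wwtr1, the gene that encodes Taz, had 22.7 to 54.7 CPM with intact alleles and 7.84 to 27.2 CPM in the knockouts, where its ranges overlapped. The labels do not give the floxed exons, so whether the 3' tag lies in the deleted part is unknown. With sorted bulk samples, fewer cells of a type and less RNA per cell cannot be told apart.

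Reg3b encodes a secreted lectin with bactericidal activity, and it had the most counts of the Reg3 members. Its counts in replicates 1, 2 and 3 were 5, 0 and 0 in ctrl, 2, 1 and 16 in ctrl + CCl4, 6, 1 and 1 in Yap/Taz KO, and 419, 1040 and 1 in Yap/Taz KO + CCl4. Replicate 3 of the injured knockout, with 1 count, was as low as most libraries of the other groups, so the group of injured knockouts overlapped every other group. The mean level was 165.7 ± 179 CPM (SD, n = 3) in Yap/Taz KO + CCl4, 2.64 ± 3.55 in ctrl + CCl4, 1.13 ± 1.29 in Yap/Taz KO and 0.651 ± 1.13 in ctrl. In all 4 groups the SD exceeded the mean.

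Reg3a, another secreted lectin of the cluster, followed the same libraries. It had 11, 0 and 0 counts in ctrl, 0, 1 and 0 in ctrl + CCl4, 3, 0 and 0 in Yap/Taz KO, and 138, 514 and 0 in Yap/Taz KO + CCl4. Only replicates 1 and 2 of the injured knockout were above 11 counts, and replicate 3 had none. Reg3g, a lectin directed against Gram-positive bacteria in the gut, had 0, 0 and 1 counts in ctrl, 0, 0 and 4 in ctrl + CCl4, 1, 0 and 0 in Yap/Taz KO, and 118, 220 and 1 in Yap/Taz KO + CCl4. It was the 1 member of the 10 that the low-count filter removed, since fewer than 3 libraries reached the minimum. Summed over Reg3a, Reg3b and Reg3g, the level was 278.2 ± 306 CPM (SD, n = 3) in Yap/Taz KO + CCl4 and 1.71 to 3.31 CPM in the other group means.

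Reg1 was high in 4 libraries rather than 2. Its counts were 188, 0 and 13 in ctrl, 3, 9 and 40 in ctrl + CCl4, 534, 2 and 12 in Yap/Taz KO, and 484, 1486 and 6 in Yap/Taz KO + CCl4. Those 4 libraries held 96.94% of Reg1 counts and were the same 4 that led the enzyme transcripts. Yap/Taz KO replicate 1 had more Reg1 than Yap/Taz KO + CCl4 replicate 1, whereas for Reg3b the same libraries had 6 and 419 counts.

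Cpa1, which removes hydrophobic residues from the carboxyl end of peptides, had the most counts of the 6 enzyme transcripts. Its counts were 593, 10 and 15 in ctrl, 2, 12 and 92 in ctrl + CCl4, 2042, 6 and 36 in Yap/Taz KO, and 776, 3648 and 6 in Yap/Taz KO + CCl4. The high libraries were 1 in ctrl, 1 in Yap/Taz KO and 2 in Yap/Taz KO + CCl4, and within ctrl + CCl4 replicate 3 was the highest. All 4 groups overlapped.

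Pnlip and Clps, the lipase and its cofactor, repeated that order. Pnlip had 525, 5 and 17 counts in ctrl, 5, 4 and 87 in ctrl + CCl4, 1786, 4 and 45 in Yap/Taz KO, and 580, 2608 and 8 in Yap/Taz KO + CCl4. Clps had 422, 6 and 20 counts in ctrl, 9, 3 and 58 in ctrl + CCl4, 1062, 7 and 35 in Yap/Taz KO, and 412, 1898 and 9 in Yap/Taz KO + CCl4. For Clps, ctrl replicate 1 was slightly above Yap/Taz KO + CCl4 replicate 1 in counts.

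Cel, a lipase activated by bile salts, had 172, 6 and 0 counts in ctrl, 1, 2 and 38 in ctrl + CCl4, 601, 0 and 5 in Yap/Taz KO, and 240, 1071 and 2 in Yap/Taz KO + CCl4. Cela2a, an elastase, had 14, 0 and 0 counts in ctrl, 0, 0 and 5 in ctrl + CCl4, 65, 0 and 0 in Yap/Taz KO, and 22, 114 and 0 in Yap/Taz KO + CCl4. Both were highest in Yap/Taz KO + CCl4 replicate 2. Try4, a trypsinogen, did not share this: it had 37, 5 and 13 counts in ctrl, 2, 5 and 1 in ctrl + CCl4, 413, 3 and 11 in Yap/Taz KO, and 15, 65 and 4 in Yap/Taz KO + CCl4. Its highest library was Yap/Taz KO replicate 1.

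**Figure D1:**
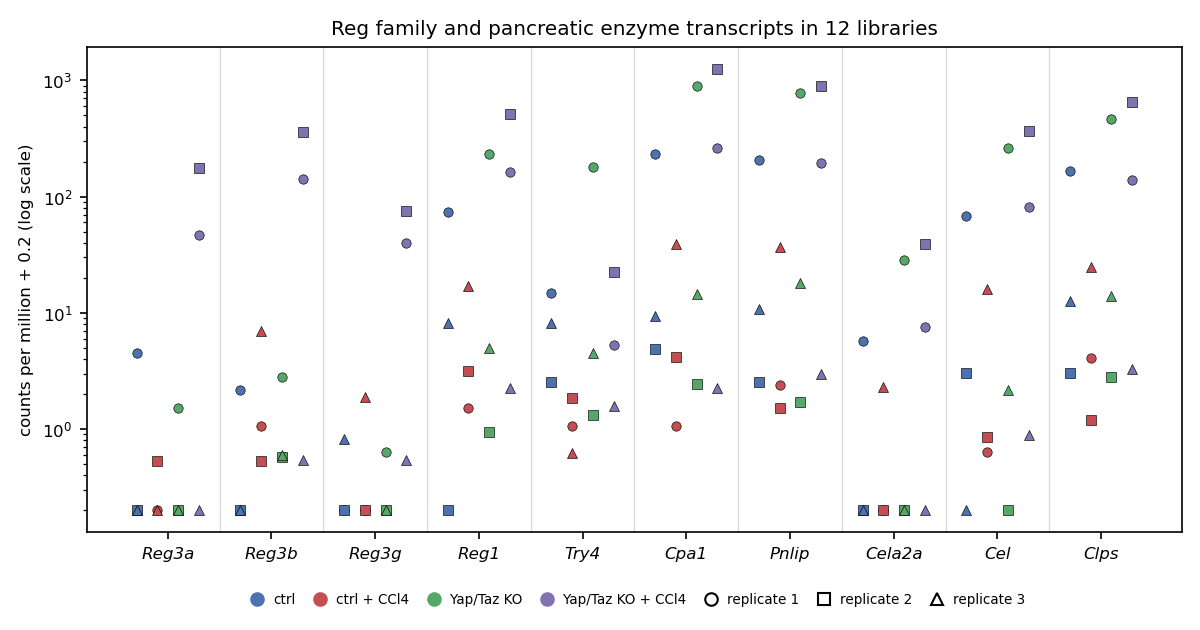
CPM of each of the 10 transcripts in each library, with 0.2 added so that zeros appear on the log axis. Colour gives the group and shape the replicate number, and the labels do not say whether that number pairs samples across groups. Reg3a, Reg3b and Reg3g are high in the injured knockout replicates 1 and 2, whereas Reg1 and the enzyme transcripts are also high in Yap/Taz KO replicate 1 and ctrl replicate 1.

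The summed level of the 6 enzyme transcripts was 689 CPM in ctrl replicate 1, 15.1 in replicate 2 and 40.2 in replicate 3. In ctrl + CCl4 it was 8.25, 8.58 and 118 CPM, in Yap/Taz KO 2608, 7.47 and 52.2 CPM, and in Yap/Taz KO + CCl4 688.1, 3217 and 9.98 CPM. Every group thus held 1 or 2 libraries more than 10 times above its lowest, and the group means were 248.1 ± 382, 44.9 ± 63.3, 889 ± 1489 and 1305 ± 1690 CPM (SD, n = 3 each) in the same order. Together with the other acinar genes, the members made up 1.466% of all counts in Yap/Taz KO + CCl4 replicate 2, 0.859% in Yap/Taz KO replicate 1, 0.38% in Yap/Taz KO + CCl4 replicate 1, 0.293% in ctrl replicate 1 and 0.0634% in ctrl + CCl4 replicate 3. In the remaining 7 libraries they made up 0.00466% to 0.0213%.

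In CPM, 7 of the 10 members had the same 4 libraries on top, among them 5 of the 6 enzyme transcripts, and in counts 8 of 10 and all 6 did, with Try4 the difference. Likewise 9 members, with 5 of the 6 enzyme transcripts, were highest in Yap/Taz KO + CCl4 replicate 2. Among acinar genes that were not members, 21 of the 23 with at least 30 counts had those same 4 libraries on top in CPM, and the exceptions were Ctrc and Erp27, of which Ctrc remained in counts. The 6 most abundant of these other acinar genes by total count were Ctrb1 (a chymotrypsinogen, 16674 counts), Prss2 (a trypsinogen, 8438), Cpb1 (a carboxypeptidase, 5452), Rnase1 (pancreatic ribonuclease, 4701), Cela1 (an elastase, 4506) and Ctrl (a chymotrypsin-like protease, 3667). Ctrb1 had 1479, 9 and 43 counts in ctrl, 8, 7 and 310 in ctrl + CCl4, 3267, 16 and 65 in Yap/Taz KO, and 2451, 9012 and 7 in Yap/Taz KO + CCl4. Cela1 was never low: its lowest library, ctrl replicate 2, had 31 counts, where Prss2 had 6 and Cpb1 had 1.

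Of the 32 other acinar genes in the table, 7 had 0 counts in every library, among them the 5 amylase genes Amy2a1 to Amy2a5. The last 300 bases of the Amy2a2, Amy2a3 and Amy2a4 transcripts are 100% identical, so reads from them cannot be assigned to 1 gene, and the sources do not say how the authors' counting treated such reads. Over the same bases Amy2a5 is 95.7% identical to each of these, and Amy2a1 only 47.1% to 48.7% identical to the others. The 6 listed transcription factors of acinar cells differed in level. Ptf1a, which specifies acinar cells, had 1 count in all 12 libraries together and Pdx1 had 0, Rbpjl, the acinar partner of PTF1, had 0 to 8 counts in a library, and Bhlha15, a factor of secretory cells, had 0 to 14. Nr5a2 and Gata4, which are also expressed in liver, had 117 to 343 and 14 to 76 counts. Markers of the pancreatic islet were close to absent: 8 listed islet genes summed to 0 to 4.45 CPM, with at most 13 counts, in Yap/Taz KO + CCl4 replicate 2. Of 12 markers of intestinal epithelium, another tissue rich in Reg3 transcripts, 3 to 5 had counts in each group, with summed levels of 18.7 to 50.5 CPM in uninjured and 41.3 to 86.0 CPM in injured libraries, and Alpi, Muc2, Phgr1, Lypd8 and Defa24 were at 0 in all 12.

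Patterns across the 12 libraries placed Reg1 and Cpa1 beside other acinar genes. The ranking covered 10480 genes that passed the low-count filter, leaving out members and predicted gene models. The 5 closest to Reg1 by Pearson correlation of log2 CPM were Cpb1 (0.986), Ctrl (0.984), Cela3b (0.98), Sycn (0.972) and Dmbt1 (0.97). The 5 closest to Cpa1 were Sycn (0.987), Prss2 (0.985), Rnase1 (0.984), Ctrb1 (0.983) and Try5 (0.983). Leaving out the 2 libraries farthest from the median, the values for these 10 pairs were 0.944 to 0.977. These values rest on a few libraries with high counts and many near 0, they share library depth, and no p is given.

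Reg3 counts were also read against the enzyme counts of the same library. Reg3a, Reg3b and Reg3g together made up 24.8% (95% exact binomial interval 23.2 to 26.5) of Reg3 plus enzyme counts in Yap/Taz KO + CCl4 replicate 1 and 15.9% (15.2 to 16.6) in replicate 2. In Yap/Taz KO replicate 1 the share was 0.167% (0.0802 to 0.307), from 10 of 5979 counts, and in ctrl replicate 1 it was 0.899% (0.515 to 1.46), from 16 of 1779. Yap/Taz KO replicate 1 had more enzyme counts than Yap/Taz KO + CCl4 replicate 1, 5969 against 2045, and fewer Reg3 counts, 10 against 675. Intervals cover counting error only, since reads are not known to be independent molecules.

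In the injured ctrl libraries the shares rested on few counts. The share was 6.65% (4.11 to 10.1) in ctrl + CCl4 replicate 3, from 20 of 301 counts, and 9.52% (1.18 to 30.4) and 7.14% (0.877 to 23.5) in replicates 1 and 2, from 2 counts each. Yap/Taz KO + CCl4 replicate 3 had 6.45% (0.791 to 21.4), also from 2 counts. The uninjured libraries with few enzyme counts had 0% (0 to 10.9) in ctrl replicate 2, 1.52% (0.0384 to 8.16) in ctrl replicate 3, 4.76% (0.12 to 23.8) in Yap/Taz KO replicate 2 and 0.752% (0.019 to 4.12) in Yap/Taz KO replicate 3. All 6 injured libraries had point values above all 6 uninjured ones, but the gap between 6.45% and 4.76% was a matter of 2 counts against 1 and lay within the intervals. Among the 5 libraries with over 200 enzyme counts, chosen after the values were seen, the intervals of the 3 injured ones lay above those of the 2 uninjured ones, and that of ctrl + CCl4 replicate 3 lay below both injured knockouts. These intervals cover counting error within single libraries, so they compare these libraries and not injury or genotype.

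**Figure D2:**
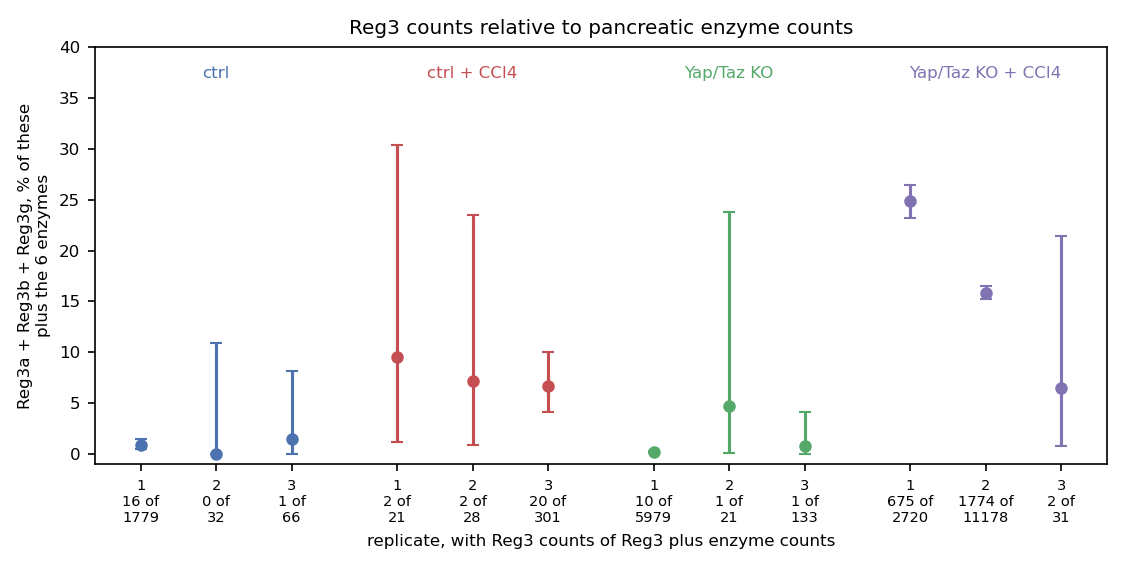
Share of Reg3a, Reg3b and Reg3g in their sum with the 6 enzyme transcripts, in percent, for each library; points are the measured shares, bars the 95% exact binomial intervals, and the counts behind each share stand under it. The injured knockout replicates 1 and 2 are at 24.8% and 15.9%, and Yap/Taz KO replicate 1, with 5969 enzyme counts, is at 0.167%.

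Each gene was also counted per 100 enzyme counts in replicates 1 and 2 of Yap/Taz KO + CCl4 and divided by the value in each of the 2 uninjured libraries rich in enzyme counts, Yap/Taz KO replicate 1 and ctrl replicate 1. The libraries were chosen for their enzyme counts after the values were seen, so these ratios compare libraries, not conditions. Against Yap/Taz KO replicate 1, Reg3b was 20.5 and 11.1 per 100 enzyme counts to 0.101, ratios of 203.9 (95% interval 92.9 to 559) and 110.0 (50.4 to 300.5). Reg3a had ratios of 134.3 (45.0 to 659) and 108.8 (37.0 to 529), against 3 counts in Yap/Taz KO replicate 1. Reg3g had ratios of 344.5 (60.6 to 13720) and 139.6 (24.8 to 5540), against 1 count there. Reg1 was at 2.65 (2.33 to 3.00) and 1.77 (1.6 to 1.95).

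The size of these ratios depended on the uninjured library. Against ctrl replicate 1, Reg3b had ratios of 72.2 (30.7 to 223.7) and 39.0 (16.7 to 120.3), and Reg3a, with 11 counts there, of 10.8 (5.86 to 22.2) and 8.76 (4.86 to 17.7). Reg3g had no count there and was at least 33.9-fold and 13.8-fold higher, with ctrl replicate 1 set at 3 counts. Reg1 was at 2.22 (1.87 to 2.64) and 1.48 (1.27 to 1.73).

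Reg2 and Reg3d, the other Reg genes of the cluster, also had ratios above 1 against both libraries. Reg2, a secreted lectin made by acinar and regenerating islet cells, had 103, 0 and 3 counts in ctrl, 3, 1 and 35 in ctrl + CCl4, 105, 1 and 1 in Yap/Taz KO, and 350, 1922 and 0 in Yap/Taz KO + CCl4. Its ratios were 9.73 (7.80 to 12.2) and 11.6 (9.54 to 14.3) against Yap/Taz KO replicate 1, and 2.93 (2.35 to 3.69) and 3.50 (2.87 to 4.31) against ctrl replicate 1. Reg3d had 3, 0 and 0 counts in ctrl, 0, 0 and 2 in ctrl + CCl4, 16, 0 and 0 in Yap/Taz KO, and 37, 136 and 0 in Yap/Taz KO + CCl4, with ratios of 6.75 (3.66 to 13.0) and 5.39 (3.21 to 9.71), and of 10.6 (3.37 to 53.9) and 8.50 (2.85 to 41.7) against ctrl replicate 1, close to those of Reg3a. Reg4 had 1 count, in ctrl replicate 1. For the 23 other acinar genes with at least 30 counts, the median ratio of replicate 2 to Yap/Taz KO replicate 1 was 1.48, and the values ran from 0.00670 for Ctrc and 0.754 for Erp27 to 11.1 for Try10, which had 2 counts in Yap/Taz KO replicate 1 (2.85 to 95.3). Against ctrl replicate 1 the median was 1.09, with values from 0.00349 for Ctrc to 3.41 for Dmbt1.

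**Figure D3:**
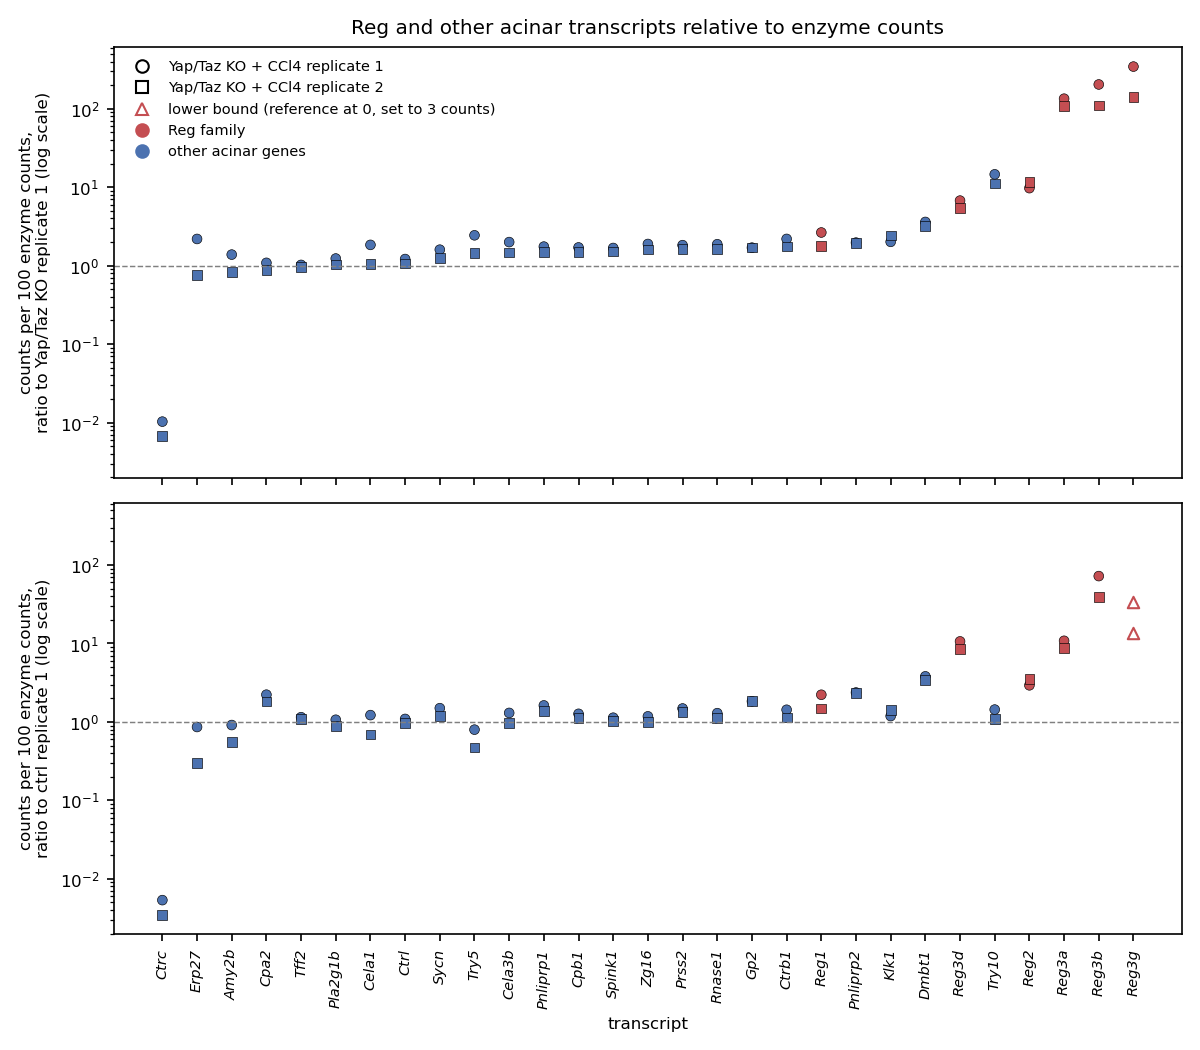
Counts per 100 enzyme counts in Yap/Taz KO + CCl4 replicate 1 (circles) and replicate 2 (squares), each divided by the value in Yap/Taz KO replicate 1 (top) and in ctrl replicate 1 (bottom), on log axes, for 6 Reg genes (red) and 23 other acinar genes (blue); open triangles are lower bounds for Reg3g, which had no count in ctrl replicate 1. In replicate 2, Reg3a is at 108.8 in the top panel and 8.76 in the bottom one, Reg3b at 110.0 and 39.0, and Reg1 at 1.77 and 1.48.

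Reads of the Reg genes could be told apart from one another. Over the last 300 bases, where the 3' tags come from, the Reg transcripts were 42.9% to 60.3% identical in pairs, and the longest run shared by any pair was 22 bases. Try4 was different: its last 300 bases were 96.3% identical to those of Try5, with a shared run of 104 bases, so the counts of these 2 trypsinogens are uncertain.

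The make-up of the enzyme counts was stable for Cpa1, Pnlip, Cel and Clps and not for Try4. In the 5 libraries with over 200 enzyme counts, Cpa1 made up 32.7% to 38.8%, Pnlip 27.7% to 31.0%, Clps 17.8% to 23.9% and Cel 9.76% to 13.5% of the enzyme counts. Try4 made up 6.92% (6.29 to 7.59) in Yap/Taz KO replicate 1, 2.10% (1.48 to 2.88) in ctrl replicate 1, 0.734% (0.411 to 1.21) and 0.691% (0.534 to 0.880) in Yap/Taz KO + CCl4 replicates 1 and 2, and 0.356% (0.00901 to 1.97) in ctrl + CCl4 replicate 3. In the 7 libraries with fewer enzyme counts it made up 8.33% to 20.0%, and the highest of these, ctrl replicate 3, had an interval of 11.1 to 31.8 from 65 enzyme counts. Of Try4 plus Try5 counts, Try4 was 54.9% (51.3 to 58.5) in Yap/Taz KO replicate 1, 10.8% (7.71 to 14.6) in ctrl replicate 1, and 5.03% (2.84 to 8.17) and 7.76% (6.04 to 9.78) in Yap/Taz KO + CCl4 replicates 1 and 2. The sum of both trypsinogens varied less, from 8.23% to 16.6% of enzyme plus Try5 counts in these 5 libraries.

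**Figure D4:**
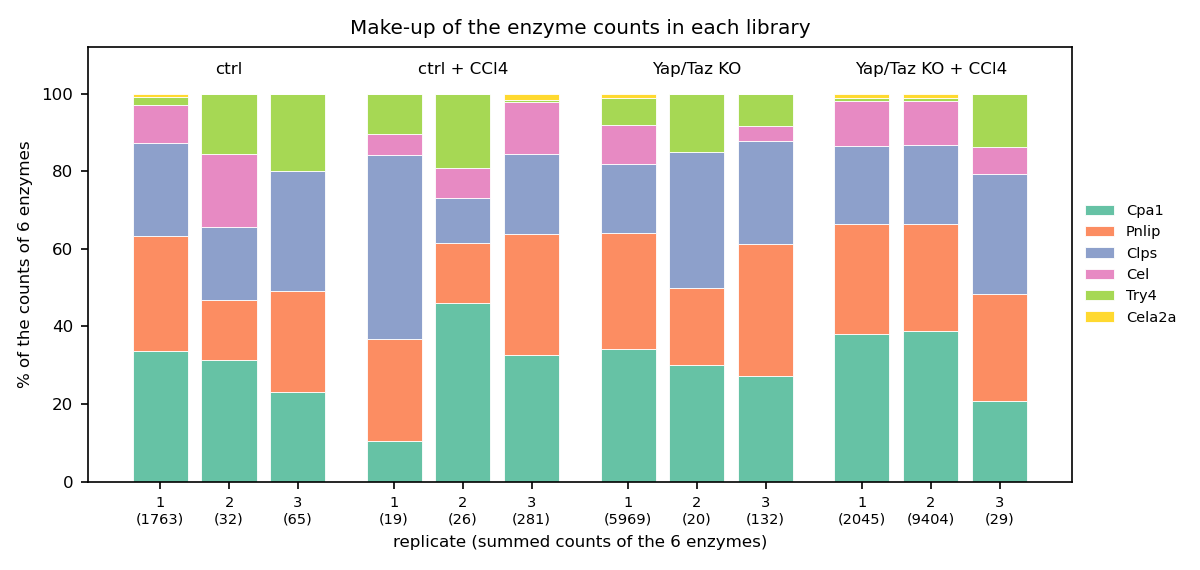
Make-up of the counts of the 6 enzyme transcripts in each library, in percent of their sum, with the summed count in brackets under each bar. Cpa1, Pnlip, Clps and Cel keep similar shares in the 5 libraries with 281 counts or more, Try4 is widest among these in Yap/Taz KO replicate 1 at 6.92%, and in the 7 libraries with 19 to 132 counts it is 8.33% to 20.0%.

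Ctrc, a chymotrypsin that cleaves trypsinogen, is described after its values were seen, because it went the other way from the members other than Try4. It had 322, 0 and 3 counts in ctrl, 0, 0 and 17 in ctrl + CCl4, 568, 0 and 15 in Yap/Taz KO, and 2, 6 and 0 in Yap/Taz KO + CCl4. Per enzyme count it was 0.0103 (0.00124 to 0.0373) and 0.00670 (0.00245 to 0.0147) times the value of Yap/Taz KO replicate 1 in replicates 1 and 2 of Yap/Taz KO + CCl4, the libraries in which the other acinar genes were high. Its annotated span, chr4:141814962-141846359 on the minus strand, contains that of Cela2a and ends at the same base, so a 3' tag from that end cannot be assigned to either gene.

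The model fitted over all 12 libraries gave fold changes for 9 of the 10 members. In the injury response of the knockout (Yap/Taz KO + CCl4 over Yap/Taz KO), Reg3a had a log2 fold change of 7.01 (SE 1.67) and Reg3b of 6.84 (SE 1.50). Reg1 was at 1.09 (SE 1.54), the enzyme transcripts other than Try4 at 0.03 to 0.35, and Try4 at -3.10 (SE 1.25). Reg3a and Reg3b were the 2 of 9 members past an adjusted p of 0.05 (edgeR's quasi-likelihood test with Benjamini-Hochberg adjustment over 10780 genes), where 9.42% of all tested genes were called higher and 8.35% lower (1016 and 900 genes, or 1814 and 406 with library totals). The members were chosen with this contrast known, so the count supports nothing. It was 0 to 5 over the alternatives, with 5 without the low-count filter and 0 in the fit of 6 samples. That fit held 7 members after the filter, and Reg3a and Reg3b were not among them, so it did not test them. A fold change against a group with 3 to 8 counts depends on the model's handling of low counts.

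Leaving out single libraries moved these fits. Without Yap/Taz KO + CCl4 replicate 2, Reg3a was at 5.33 and no longer past the threshold, and with DESeq2 it was at 7.04 and also not past it. Reg3b was at 5.61 without that library and 6.85 with DESeq2, both past the threshold. With the 4 libraries richest in enzyme counts left out, an alternative added after the data were seen, the injured knockout kept only replicate 3. Its replicates 1 and 2, which held nearly all Reg3 counts, were removed, so the loss of the change was fixed by that choice. Reg3b was at -0.49 there and Reg3a was no longer in the fit. Without Yap/Taz KO replicate 1 the fitted change of Reg3a was 10.50 and that of Reg3b 8.26.

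In ctrl mice, the injury response of the members (ctrl + CCl4 over ctrl) was lower for 8 of 9 and higher for Reg3b, and 0 of the 9 were past the threshold (edgeR), where 10.5% of all tested genes were called higher and 12% lower (1137 and 1290 genes, or 1974 and 698 with library totals). Reg3b was at 1.26 (SE 2.17), Reg3a at -3.54 (SE 2.70), Reg1 at -2.40 (SE 1.82) and the enzyme transcripts at -3.32 to -1.91. Without ctrl replicate 1 the fitted change was 5.45 for Reg3b, 1.70 for Reg3a, 0.47 for Reg1 and -0.08 to 3.61 for the enzyme transcripts other than Try4, which stayed at -2.60. DESeq2 called 0 members here, and 0 had an unadjusted edgeR p under 0.05. Without the low-count filter 7 members were past the threshold, and without Yap/Taz KO replicate 1 it was Try4 alone.

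Between genotypes the fitted differences were large, and 0 of the 9 members were past the threshold of edgeR in either comparison or in the difference of responses. After injury (Yap/Taz KO + CCl4 over ctrl + CCl4) they were 8.76 (SE 1.86) for Reg3a, 6.18 (SE 1.36) for Reg3b, 5.19 (SE 1.90) for Reg1 and 3.27 to 5.35 for the enzyme transcripts, all on the log2 scale, and the share of all genes called in that contrast was 0.0%. Without injury (Yap/Taz KO over ctrl), Reg3a was at -1.78 (SE 2.35), Reg3b at 0.60 (SE 2.51), Reg1 at 1.71 (SE 1.62) and the enzyme transcripts at 1.61 to 3.05, again with 0.0% of genes called. The difference between the injury responses was 10.55 (SE 3.22) for Reg3a, 5.58 (SE 3.47) for Reg3b, 3.49 (SE 2.38) for Reg1 and 0.22 to 3.38 for the enzyme transcripts, with 0.0% of genes called. DESeq2 called 0 members in each of these 3 comparisons. After injury it gave no adjusted p for Reg3a and Cela2a, so only 7 of the 9 members could be called there. In edgeR, 8, 1 and 1 members had an unadjusted p under 0.05, after injury, without injury and in the difference. Without the low-count filter all 10 members were past the threshold after injury, 7 without injury and 7 in the difference, and without Yap/Taz KO + CCl4 replicate 3 it was Reg3a, Reg3b and Reg3g after injury. The comparisons share samples with one another, so they are not independent. Across all genes, an unadjusted p under 0.05 was reached by 1020 in uninjured mice, 613 after injury and 874 for the difference of responses, and DESeq2 called 43, 17 and 12.

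Of 35 Reg family and acinar genes outside the members, 24 were tested. None passed the threshold in the ctrl injury response, in either genotype contrast or in the difference of responses. At an unadjusted edgeR p under 0.05 were 2, 0, 22 and 2 genes in ctrl injury, uninjured genotype, injured genotype and difference. Of all 10780 tested genes, 3622, 1020, 613 and 874 had such a p, in the same order. The 22 were high together in replicates 1 and 2 of Yap/Taz KO + CCl4 and lower in replicate 3, so they are not independent. DESeq2 called 1 of the 24 in the ctrl injury response. In the knockout injury response 1 of 24 passed, Ctrc, which fell by 6.87 on the log2 scale (SE 2.21, edgeR adjusted p = 0.044). The call was lost in 11 of 18 alternatives, and without Yap/Taz KO replicate 1 the change was -1.92 (edgeR adjusted p = 0.615). The median of the 24 in that contrast was 0.77, against 0.03 over all tested genes, and after injury between genotypes it was 5.06 against -0.01. Reg2 was at 3.68 (SE 1.72, edgeR adjusted p = 0.161) and Reg3d at 2.72 (SE 1.39, adjusted p = 0.202) in the knockout injury response, and at 5.80 (adjusted p = 0.803) and 6.09 (adjusted p = 0.759) between injured genotypes.

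Extl3, a proposed receptor for Reg proteins, was measured in every library, with 22 to 43 counts in ctrl, 55 to 83 in ctrl + CCl4, 33 to 40 in Yap/Taz KO and 70 to 89 in Yap/Taz KO + CCl4. In CPM it was 13.8 ± 2.97, 26.2 ± 2.00, 15.2 ± 2.23 and 26.7 ± 3.03 (SD, n = 3 each) in that order, and the injured libraries lay above the uninjured ones. On the model's scale, which is relative to the bulk of genes, the injury response was 0.56 in ctrl (edgeR adjusted p = 0.184) and 0.43 in the knockout (adjusted p = 0.321), and neither passed the test. Scaled by library totals, the responses were 0.92 (edgeR adjusted p = 0.0263) and 0.82 (adjusted p = 0.0474), and both passed.

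The IL-6 family and STAT3, which control Reg3 genes in other settings, were followed with a list of 48 genes, of which 41 were tested. In ctrl mice 10 of the 41 rose after injury and 4 fell, and in knockout mice 14 rose and 3 fell. The list was chosen with earlier results of these data known, so these counts are descriptions. Across all tested genes, 10.5% rose and 12% fell in ctrl, and 9.42% rose and 8.35% fell in the knockout. The list medians were 0.31 and 0.38, against 0.03 over all tested genes in each. With library totals, which moved the median of all genes to 0.40 in both responses, 17 rose and 2 fell in ctrl, and 18 rose and 3 fell in the knockout. None of the 41 passed the threshold between genotypes, before or after injury, or in the difference of responses (edgeR), with 5, 4 and 4 at an unadjusted p under 0.05. Of all 10780 tested genes, 1020, 613 and 874 had such a p, in the same order. DESeq2 called 1 after injury and none in the other comparisons.

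Among the 7 ligands, Osm, which signals through gp130 and is made by myeloid cells, was the 1 tested, and it rose in both genotypes: by 3.41 (SE 1.16, edgeR adjusted p = 0.0457) in ctrl and 3.96 (SE 1.29, adjusted p = 0.046) in the knockout. Its counts were 0 or 1 in each uninjured library, 2, 14 and 22 in ctrl + CCl4, and 6, 20 and 4 in Yap/Taz KO + CCl4. Its call was lost in 12 of 18 alternatives in ctrl (edgeR adjusted p = 0.179 without ctrl + CCl4 replicate 3) and in 9 of 18 in the knockout (adjusted p = 0.195 without Yap/Taz KO + CCl4 replicate 2). Il6 had at most 5 counts in a library and Il22 had none. The 10 macrophage genes summed to 167 to 2449 CPM in uninjured libraries and 2069 to 5435 CPM in injured ones. All 10 were present in each group, and the ranges overlapped. Their sum did not always follow Osm: ctrl replicate 1 had 2449 CPM and 1 Osm count. The part of macrophages in the result was not tested.

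Of the 6 receptors tested, Lifr fell in ctrl by 0.83 (edgeR adjusted p = 0.0283) and Il10rb, a subunit of the IL-22 receptor, rose in the knockout by 1.88 (adjusted p = 0.017). Lifr was at -0.47 with library totals (edgeR adjusted p = 0.19), not past the threshold. Il10rb was at 1.56 with the 4 enzyme-rich libraries left out, which kept only replicate 3 of the injured knockout. The call of Il10rb was lost in 3 of 19 alternatives. Il6ra was at -0.48 in ctrl and -1.13 in the knockout (adjusted p = 0.479 and 0.0847), Il6st, which encodes gp130, at 0.12 and -0.17 (0.806 and 0.743), and Osmr at -0.38 and 2.15 (0.792 and 0.178). None of the 9 relay genes passed in either genotype. Stat3 itself was at -0.25 and -0.19 (adjusted p = 0.489 and 0.626) and Socs3, the feedback inhibitor, at 0.09 and 0.36 (0.895 and 0.56). In the genotype contrasts and the difference of responses, the edgeR adjusted p of these 5 genes was 0.449 to 0.992.

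Most of the calls were acute phase and other STAT3-responsive genes: 9 of 25 rose and 3 fell in ctrl, and 12 rose and 3 fell in the knockout. The shares of all tested genes that rose and fell were 10.5% and 12% in ctrl, and 9.42% and 8.35% in the knockout. These 25 were also listed with earlier results known. Lcn2, which binds bacterial siderophores, had 54, 71 and 54 counts in ctrl, 1534, 1936 and 1952 in ctrl + CCl4, 41, 50 and 49 in Yap/Taz KO, and 1939, 3122 and 1769 in Yap/Taz KO + CCl4. All 6 injured libraries were far above all 6 uninjured ones, among them replicate 3 of the injured knockout, which had 2 Reg3 counts. In CPM that replicate was the lowest injured library, at 609 against 639 to 1068 in the others. Lcn2 rose by 4.22 in ctrl (edgeR adjusted p = 5.2e-07) and 5.00 in the knockout (adjusted p = 3.43e-07).

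The serum amyloid genes Saa1 and Saa2 also rose in both genotypes. Saa1 had 355, 326 and 234 counts in ctrl, 13760, 5363 and 9286 in ctrl + CCl4, 271, 270 and 269 in Yap/Taz KO, and 14619, 11599 and 8613 in Yap/Taz KO + CCl4. It rose by 4.34 (edgeR adjusted p = 3.97e-06) and 4.81 (adjusted p = 1.67e-06), and Saa2 by 4.48 (adjusted p = 1.19e-05) and 4.85 (adjusted p = 9.19e-06). Il1rn, an inhibitor of IL-1 signalling, rose by 3.28 in ctrl (adjusted p = 2.85e-05), and Timp1, an inhibitor of matrix proteases, by 6.97 in the knockout (adjusted p = 4.07e-05), where its uninjured libraries had 0 or 1 count. In Yap/Taz KO + CCl4 replicate 3, Timp1 had 59 counts, Saa1 8613 and Reg3b 1. Saa1 and Timp1 were the lowest of their group there, at 2964 and 20.3 CPM. Both were above ctrl + CCl4 replicate 2, which had 1771 and 13.2 CPM.

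**Figure D5:**
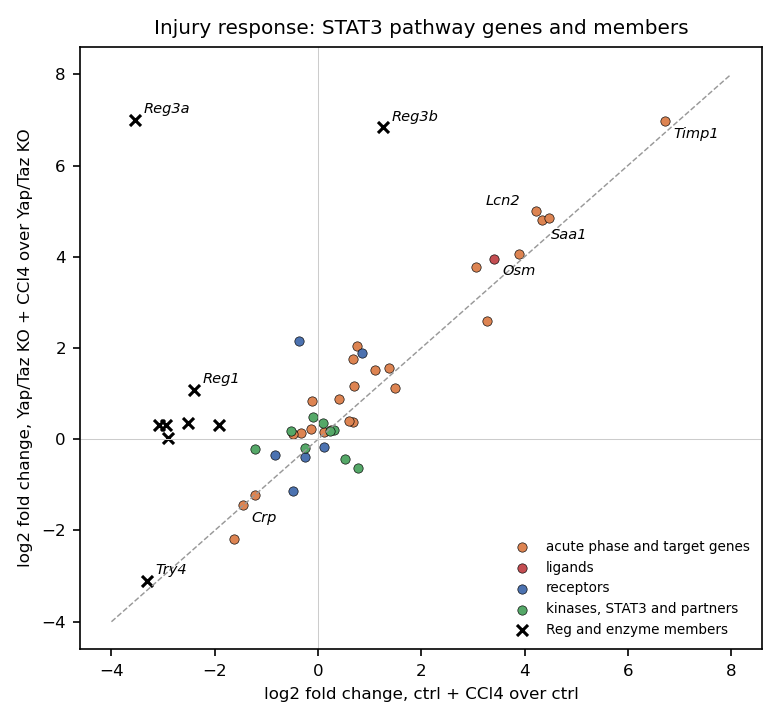
Log2 fold change after injury in ctrl mice (horizontal) and in Yap/Taz KO mice (vertical) for the 41 tested IL-6 and STAT3 genes, coloured by role, and for the 9 tested Reg and enzyme transcripts (crosses); the dashed line marks equal change. Lcn2, Saa1, Osm and Timp1 lie near that line, whereas Reg3a is at -3.54 in ctrl and 7.01 in the knockout.

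Whether the Reg3 and acinar counts came from pancreatic RNA carried into the preparations or from transcription in liver cells was not tested. The enzyme transcripts were high in 4 libraries of 3 groups, injured and uninjured, hepatocyte markers were abundant in all 12 libraries, and 8 islet markers were at or near 0. Ctrl replicate 1 also had the highest sums of its group for macrophage (2449 CPM, group minimum 420), endothelial (1451, 361), stellate (1192, 268) and erythroid markers (1504, 18.4). Yap/Taz KO replicate 1 was highest in its group for macrophage markers (835 CPM, minimum 167), but not for stellate or erythroid ones. The part of such cells was not tested. Reg3 per enzyme count was high in replicates 1 and 2 of Yap/Taz KO + CCl4 and low in the uninjured libraries with comparable enzyme counts. The Reg3 share of ctrl + CCl4 replicate 3, 6.65% from 20 of 301 counts, lay between these. Replicate 3 of the injured knockout had 29 enzyme counts and 2 Reg3 counts.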

How the data were processed

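Hepatocytes from 12 mouse samples (4 groups of 3) were profiled by QuantSeq 3' mRNA-Seq FWD, per the labels' protocols. The deposited table holds raw counts per gene symbol, unscaled by the authors, as the values show. The submitters' processing notes list FastQC, cutadapt, STAR 2.6.1d, mm10 and GRCm38. No source used here names a counting tool, annotation, strand setting or handling of molecular identifiers. No row lacked a gene name, and 17882 rows were 0 in all libraries.

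Counts were tested with edgeR 4.0.16 (R 4.3.3): filterByExpr (minimum count 10, minimum total 15) left 10780 genes, libraries were scaled by TMM (factors 0.776 to 1.312), and the quasi-likelihood F test was applied to 5 contrasts in 1 fit of 12 samples, with Benjamini-Hochberg adjustment at 0.05. Levels are CPM of the library total. DESeq2 1.42.0, edgeR RLE factors, library totals, no filter, a replicate block, fits of 6 samples and leaving out each library were alternatives. On simulated counts for the ctrl injury contrast, 185 of 200 changed genes were recovered, with 10 false calls among 10316 others.

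Members and gene lists were chosen with earlier results of these data known. Besides members, the text names Reg2, Reg3d, Reg4, Extl3, the 6 most abundant other acinar genes, 5 fixed STAT3-pathway genes, the 4 list genes with the smallest adjusted p per contrast, and the 5 genes most like Reg1 and Cpa1; genes named beyond this rule (Ctrc, Erp27, Try5, Try10, amylases, the 6 acinar transcription factors, Osm, Il6, Il22, Lifr, Il10rb) were chosen after their values were seen. Of 33 other acinar symbols, 32 were in the table. At library totals of 1617761 to 3028951 counts, 1 count is 0.330 to 0.618 CPM.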

Additional observations from a re-analysis of the deposited data

How the results depend on the processing

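The count of genes changed in the ctrl injury response, 2427 in all, stayed within 1.5 times of that under every alternative run. For the knockout injury response (1916 genes) the count was 789 with the 4 enzyme-rich libraries left out and 1176 to 2331 over single libraries left out. For the genotype contrasts and the difference of responses (0 genes each), no filter gave 210 (uninjured), 109 (injured) and 115 (difference). DESeq2 gave 43, 17 and 12. The fit of 6 samples gave 5 after injury, and single libraries left out gave 0 to 1 uninjured and 0 to 3 after injury. For the STAT3 list, no filter gave 2, 2 and 1 in place of 0, and the fit of 6 samples and DESeq2 each gave 1 after injury. For the acinar and Reg genes outside the members, no filter gave 20 in ctrl injury, 13 in knockout injury, 16 between uninjured and 23 between injured genotypes and 17 for the difference. DESeq2 gave 1 in ctrl injury. The 1 call in knockout injury became 0 with library totals, the replicate block, 6 samples and DESeq2 (where Ctrc had no adjusted p). Over single libraries left out the count was 0 to 3 (3 without Yap/Taz KO replicate 1).

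For members, directions in the injury responses turned mostly with single libraries. Without Yap/Taz KO + CCl4 replicate 2, Reg1 was at -0.34 and the enzyme transcripts other than Try4 at -1.82 to -1.51 in knockout injury, and without Yap/Taz KO replicate 2 or 3 those enzyme transcripts were at -0.55 to -0.23. Without Yap/Taz KO replicate 1, Try4 was at 1.49. In ctrl injury Reg3b was at -0.68 without ctrl + CCl4 replicate 3. With the 4 libraries left out, which kept only replicate 3 of the injured knockout, Reg1 was at -0.72 and Cpa1 at -2.29 in knockout injury. In ctrl injury Reg1 and Cpa1 were at 0.38 and 0.57. With the same libraries left out, Reg3b was also at -0.49 and Reg2 at -3.36 in knockout injury, and Reg2 was at -6.43 between injured genotypes. With library totals, Il6st was at 0.18 in knockout injury and Stat3 at 0.11 in ctrl and 0.19 in knockout injury. In ctrl injury Osmr was at 0.14 with the replicate block and 1.91 with the 4 libraries left out, and ran from -0.87 to 1.92 over single libraries left out; Il6st ran from -0.2 to 0.32 and Socs3 from -0.25 to 0.72. The cause was not tested. With the block, the ctrl and knockout injury responses had 2594 and 2095 genes. Same-numbered samples correlated at -0.152 to 0.323 in their deviations from group means. That range cannot show whether the numbers mark pairs or a shared batch, and the labels do not say. Replicate 1 of ctrl, of Yap/Taz KO and of Yap/Taz KO + CCl4 were all among the 4 enzyme-rich libraries.

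Reg3a and Reg3b had at most 16 counts in 10 of the 12 libraries, and each high value of a member rests on 1 or 2 libraries of a group, so depth and replicate number limit every comparison of members.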
